A study of Mus musculus with 26 samples.

Results

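The mRNAs of 57 translation initiation and elongation factors were followed in IMP2 immunoprecipitates and total RNA of mouse brown fat. Members were all genes whose symbol in the brown fat count tables starts with Eif or Eef and a digit, which gave 57 of 9378 genes. The symbols also cover the repressors that bind eIF4E, kinases of factors, and Eif2c1 and Eif2c4, which are older symbols of the Argonaute genes Ago1 and Ago4. Of the deposited tables, 1 is called the knockout table here and lists 1189 genes and 15 of the factors. The other, called the IgG table, lists 9378 genes and all 57 factors, of which 42 are listed there alone.

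IMP2, the product of Igf2bp2, binds mRNAs and affects how stable they are and how well they are translated, and brown fat is the tissue that burns fuel to make heat. The knockout table holds 2 libraries each of IMP2 immunoprecipitates from Imp2-/- mice (KO), total RNA from KO mice, IMP2 immunoprecipitates from wild-type littermates (WT) and total RNA from WT mice. The IgG table holds 1 WT IMP2 immunoprecipitate, 1 WT immunoprecipitate made with IgG and 2 WT total RNA libraries. All were 10-week-old C57Bl/6J males on a normal chow diet, bred from Imp2+/- by Imp2+/- matings and spent the night before dissection at 4 °C. How the Imp2 allele was made is not given in the sources used here. Nor do the labels say whether libraries of a group came from separate mice or which immunoprecipitate came from which total RNA, and the spread that p-values measure here is that between libraries, which may be technical.

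Translation of most mRNAs starts when eIF4E binds the cap and, with the scaffold eIF4G and the helicase eIF4A, brings in the small ribosomal subunit that carries eIF3 and the initiator tRNA held by eIF2. eIF2B reloads eIF2 with GTP, the 4E-binding proteins keep eIF4E from eIF4G until mTORC1 phosphorylates them, and the elongation factors eEF1 and eEF2 then feed in aminoacyl-tRNAs and move the ribosome along. In human cells many mRNAs of the elongation factors and of several eIF3 subunits start with a run of pyrimidines, the terminal oligopyrimidine (TOP) motif, which makes their translation depend on mTORC1.

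Because that motif lies at the start of the mRNA, the first 30 bases from the annotated start of a few factor genes are shown, from RefSeq on GRCm38.p6, read on the strand of the gene. Capitals mark a run of at least 8 C or T. The run is shown for 3 eIF3 subunits of the knockout table (Eif3f at chr7:108934415-108934444, Eif3l at chr15:79075223-79075252 and Eif3k on the minus strand at chr7:28981859-28981888) and for Eef2 (chr10:81176631-81176660). Starts with no such run are shown for factors on which the comparisons turn, Eef1b2 (chr1:63176831-63176860), Eif5 (chr12:111538101-111538130), Eif4g1 (chr16:20672727-20672756) and, on the minus strand, Eef1a1 (chr9:78481695-78481724).
Eif3f: CTCTCTTTCTCggcaagatggcttctccgg
Eif3l: tccgCTCTCTCCCacgggcttctggagcgc
Eif3k: ggtgctgaaagcgCCTTTCCCTTTgccttc
Eef2: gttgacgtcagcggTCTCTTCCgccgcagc
Eef1b2: gccggaagtagccgaggccttgcgtccgag
Eif5: gcgagccaatgacaagagaagttgggaggg
Eif4g1: gccctctgcgccggtcacgtggggcgctgg
Eef1a1: ttcccgagggtgggggagaacggtatataa
In the Eif3f start the run of 11 pyrimidines begins at the first annotated base, whereas in Eif3k a run of equal length begins at base 14. Of the 45 factors with an entry in the RefSeq promoter table, 9 (20%) held such a run in this window, against 11.6% of all 27025 genes in the table. On the other strand 17.8% of the factors and 15.6% of all genes held one. A match to these letters, or the lack of one, is a description of an annotated start and does not show where transcription begins in brown fat. Eef1a1 and Eef1b2, shown here without a run, are among the factors whose human mRNAs carry the TOP motif. Whether their mRNAs in brown fat start with such a run was not tested.

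Over named genes, libraries of the knockout table held 780333 to 4916160 counts, and those of the IgG table held 1321756 to 3750103. Levels are CPM, reads per unit of library size, scaled by TMM over the genes of their own table, so levels in one table cannot be set against levels in the other, and a ratio of immunoprecipitate over total RNA shows recovery relative to the other listed genes, not the amount of RNA recovered. A factor had 118 to 3519 counts in a knockout-table library and 3 to 4820 in one of the IgG table. Igf2bp2 itself is not listed in the knockout table, so the genotype labels could not be checked on the targeted gene, and in the IgG table it had 6.28 CPM in the IMP2 immunoprecipitate, 3.90 CPM in the IgG immunoprecipitate and 14.1 and 6.05 CPM in total RNA. The tissue label was checked on brown adipocyte markers (6 of 12 listed in the knockout table, all 12 in the IgG table, none at 0), with sums of 36737 to 47755 CPM and, for the IgG table, 21666 to 27709 CPM. Skeletal muscle markers varied widely: the 8 of 15 listed in the knockout table summed to 363 and 1384 CPM in KO immunoprecipitates, 596 and 2470 CPM in KO total RNA, 1540 and 7248 CPM in WT immunoprecipitates and 2701 and 10515 CPM in WT total RNA, and none was at 0. Blood markers (3 of 7 listed, none at 0) summed to 2408 and 1618 CPM in KO immunoprecipitates and 4845 and 3625 CPM in KO total RNA, and to 2669 and 2734 CPM in WT immunoprecipitates and 5038 and 4300 CPM in WT total RNA. The muscle sums were thus higher in each WT library than in each KO library of the same kind of RNA, and the blood sums were lower in each immunoprecipitate than in each total RNA library, and their part in the results below was not tested. Among the 3 blood markers, some genes had the same log2 ratio of immunoprecipitate over total RNA. Median and highest ratio were both -0.786 in WT, and median and lowest were both -1.16 in KO. The blood sums may thus hold the same reads more than once, which was not tested. In bulk tissue, fewer cells of a type and less RNA per cell cannot be told apart.

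**Figure D1:**
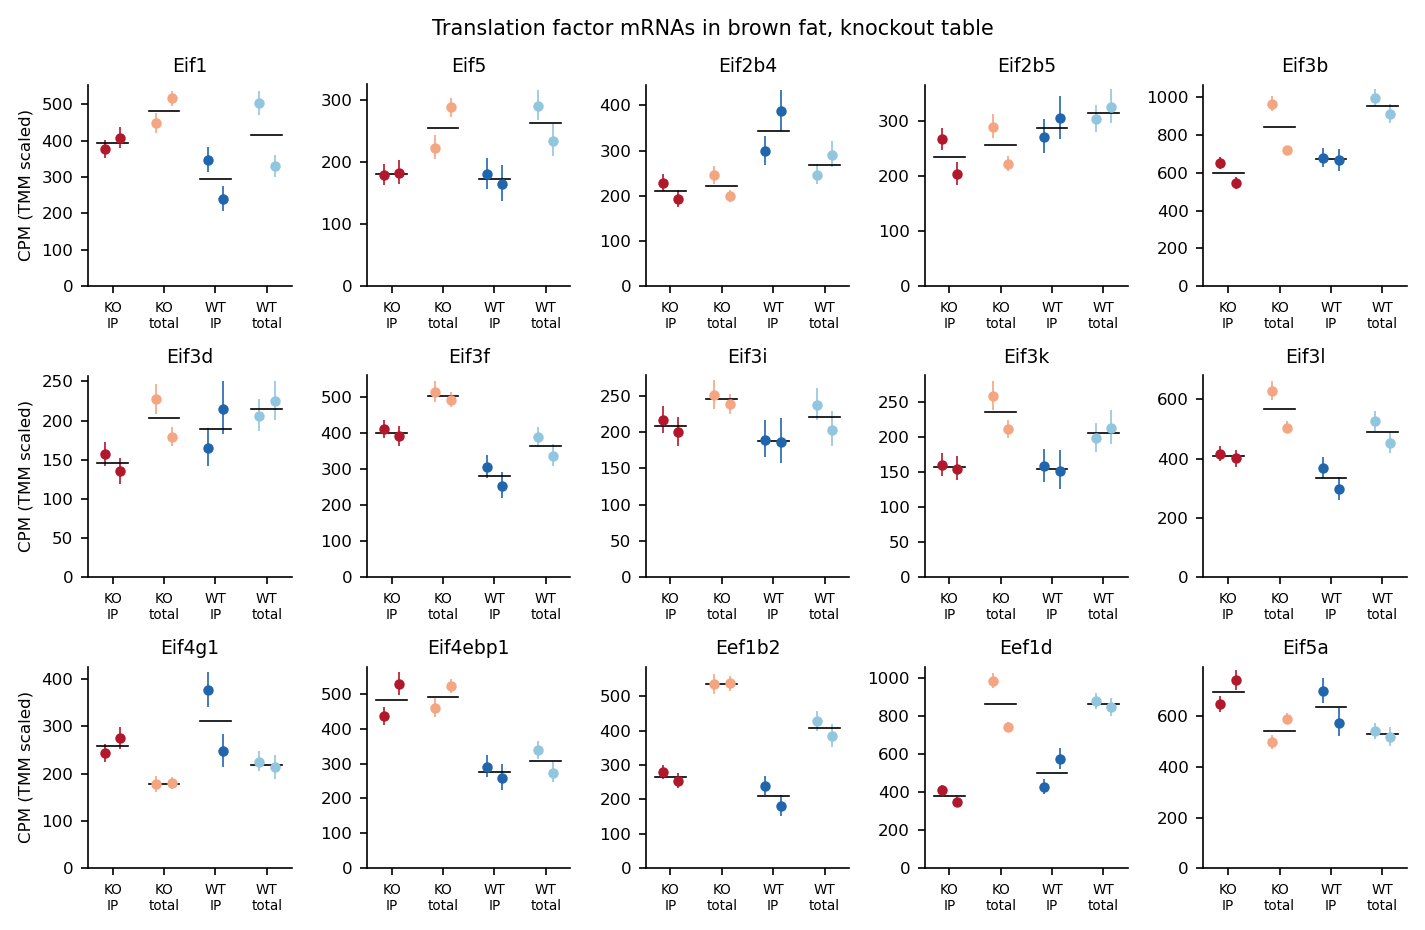
Level of the 15 factor mRNAs listed in the knockout table, in CPM on a linear axis from 0, for KO and WT immunoprecipitates (IP) and total RNA, grouped by role. Each point is 1 library with its 95% Poisson counting interval and the line is the mean of the 2 libraries; Eef1b2 and Eef1d lie lower in every immunoprecipitate than in every total RNA library, and Eif4ebp1 lies higher in every KO library than in every WT library.

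The first question was which factor mRNAs were recovered in IMP2 immunoprecipitates less or more than their share of total RNA, in KO and in WT brown fat. In both genotypes the mRNAs of the eEF1 exchange subunits Eef1b2 and Eef1d were recovered least of the 15 relative to total RNA. Eif3k was also lower in KO immunoprecipitates and Eif5 in WT immunoprecipitates, and no factor was higher in either genotype. The scaffold Eif4g1 had the highest ratio of the 15 in both genotypes, and all 6 eIF3 subunits had negative ratios in both. In KO tissue 3 of 15 factors were lower by the edgeR quasi-likelihood test at an adjusted p of 0.05, against 15.7% of all 1189 genes, and 0 were higher, against 10.6%. In WT tissue 3 of 15 were lower, against 12.4% of all genes, and 0 were higher, against 9.92%. These counts are small, and the shares of factors called lie near those of all genes. Leaving out KO total RNA 19 gave 5 factors lower in KO, against 13% of all genes, and 5 in WT, against 12.6%. Leaving out WT immunoprecipitate 21 gave 1 factor lower in WT, against 7.74% of all genes, and leaving out WT total RNA 16 also gave 1, against 5.13%. Without WT libraries 17 and 22, which leaves 1 library in each WT group, 0 factors and 2.61% of all genes were lower in WT, and 3 factors and 14.3% of all genes in KO, so the loss of WT calls ran over all genes. With upper-quartile scaling 2 factors were lower in KO and 2 in WT, against 10.9% and 7.91% of all genes, and 2 factors were higher in KO and 0 in WT, against 23% and 18%. With library-size scaling 3 factors were lower in KO and 2 in WT, against 12.2% and 10% of all genes, and 2 were higher in KO and 0 in WT, against 20.7% and 13.2%. The ratio was negative for 13 of 15 factors in KO and 12 of 15 in WT, against 50.5% and 49.1% of all genes. The factor medians were -0.33 and -0.37 on the log2 scale, beside medians of -0.01 and 0.01 over all genes.

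Among the elongation factors, Eef1b2 (chr1:63176831-63180486) encodes the eEF1B subunit that reloads eEF1A with GTP. It had 279 and 254 CPM in KO immunoprecipitates, against 536 and 537 CPM in KO total RNA, and 239 and 181 CPM in WT immunoprecipitates, against 428 and 385 CPM in WT total RNA. Every immunoprecipitate lay below every total RNA library, and the log2 ratio was -1.01 ± 0.16 (SE) in KO (edgeR adjusted p = 0.00341) and -0.95 ± 0.17 in WT (adjusted p = 0.00646). Over 19 alternative settings the adjusted p ranged up to 0.0358 in KO and 0.0723 in WT, and the WT ratio stayed between -1.17 and -0.76. The single setting past 0.05 left out WT libraries 17 and 22 together, where the WT ratio was -0.84 with 1 library in each WT group.

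Eef1d (chr15:75894796-75909784), the other exchange subunit, had 414 and 349 CPM in KO immunoprecipitates, against 984 and 744 CPM in KO total RNA. In WT it had 428 and 576 CPM in immunoprecipitates, against 879 and 846 CPM in total RNA. Again no library overlapped, with log2 ratios of -1.18 ± 0.19 in KO (edgeR adjusted p = 0.00338) and -0.78 ± 0.19 in WT (adjusted p = 0.0214). The KO call held in all 19 alternatives, with adjusted p up to 0.0267, and the WT call in 15 of 19, with adjusted p up to 0.104; it was lost without WT immunoprecipitate 21, without WT total RNA 16, without WT total RNA 17, and without 17 and 22 together, where the ratio was -1.04. A stretch of 50 bases of Eef1d is shared with the gene Tigd5, and whether reads were counted by strand is not given in the sources used here.

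Eif5a, a hypusine-bearing factor that relieves stalled ribosomes, went the other way among the elongation factors. It had 647 and 741 CPM in KO immunoprecipitates, against 497 and 589 CPM in KO total RNA, and 700.0 and 575 CPM in WT immunoprecipitates, against 541 and 517 CPM in WT total RNA. The groups did not overlap in either genotype, but the log2 ratios of 0.35 ± 0.15 in KO (edgeR adjusted p = 0.112) and 0.27 ± 0.15 in WT (adjusted p = 0.218) did not pass the threshold. Its gene overlaps Gps2 by 345 bases.

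The eIF3 complex holds the small ribosomal subunit ready for the mRNA, and 6 of its 13 listed subunits are in the knockout table. Eif3k (chr7:28971372-28981890), a peripheral subunit, had 160.1 and 155 CPM in KO immunoprecipitates, against 258 and 211 CPM in KO total RNA, and its log2 ratio of -0.57 ± 0.13 passed the threshold (edgeR adjusted p = 0.0147). In WT it had 158 and 152 CPM in immunoprecipitates, against 198 and 213 CPM in total RNA, and the ratio of -0.41 ± 0.14 did not (adjusted p = 0.069). The KO call was lost in 5 of 19 alternatives (adjusted p up to 0.108), among them leaving out KO immunoprecipitate 23, KO immunoprecipitate 24 or KO total RNA 18. That Eif3k passed in one genotype and missed in the other does not show a difference, and the direct test of the difference gave -0.17 ± 0.19 (adjusted p = 0.999).

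The scaffold subunit Eif3b had 653 and 543 CPM in KO immunoprecipitates, against 964 and 718 CPM in KO total RNA, and 678 and 665 CPM in WT immunoprecipitates, against 994 and 910.3 CPM in WT total RNA. Eif3l, which sits beside Eif3k, had 415 and 401 CPM in KO immunoprecipitates, against 627 and 504 CPM in KO total RNA, and 369 and 298 CPM in WT immunoprecipitates, against 526 and 453 CPM in WT total RNA. For both genes no immunoprecipitate reached a total RNA library of its genotype, and the ratios missed the threshold narrowly, at -0.49 in KO and -0.50 in WT for Eif3b (edgeR adjusted p = 0.054 and 0.0545) and -0.47 and -0.55 for Eif3l (adjusted p = 0.0704 and 0.0523). Eif3d, which can bind the cap itself, Eif3f and Eif3i had log2 ratios of -0.47, -0.33 and -0.23 in KO and -0.19, -0.37 and -0.23 in WT, with adjusted p of 0.0723 to 0.463.

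Of the factors that choose the start site, Eif5, the GTPase activator of eIF2, had 179.9 and 183 CPM in KO immunoprecipitates, against 223 and 288 CPM in KO total RNA, and 181 and 165 CPM in WT immunoprecipitates, against 291 and 235 CPM in WT total RNA. Its log2 ratio was -0.50 ± 0.16 in KO (edgeR adjusted p = 0.0516) and -0.61 ± 0.17 in WT (adjusted p = 0.0366), where it passed. The WT call was the least stable of the 6, lost in 10 of 19 alternatives (adjusted p 0.00829 to 0.191). These included upper-quartile and library-size scaling and leaving out KO immunoprecipitate 23 or 24, WT immunoprecipitate 21 or 22, or WT total RNA 16. Eif1, which guards against wrong start codons, had 377 and 408 CPM in KO immunoprecipitates, against 448 and 516 CPM in KO total RNA, and 347 and 239 CPM in WT immunoprecipitates, against 502 and 329.6 CPM in WT total RNA. The WT groups overlapped, and neither ratio (-0.30 and -0.50; adjusted p = 0.377 and 0.163) passed.

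The cap-complex scaffold Eif4g1 (chr16:20672720-20692883) had 243 and 275 CPM in KO immunoprecipitates, against 178 and 179.9 CPM in KO total RNA, and 376 and 247 CPM in WT immunoprecipitates, against 225 and 213 CPM in WT total RNA. All 4 immunoprecipitates lay above all 4 total RNA libraries, yet the log2 ratios of 0.53 ± 0.19 in KO (edgeR adjusted p = 0.0644) and 0.51 ± 0.19 in WT (adjusted p = 0.0833) missed the threshold. Of the alternatives, 7 of 19 in KO and 2 of 19 in WT called it higher, with adjusted p from 0.0121 to 0.216 and from 0.0237 to 0.479.

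The eIF2B subunits, which regenerate active eIF2, sat nearer to total RNA. Eif2b4 had 229 and 193 CPM in KO immunoprecipitates, against 245 and 199 CPM in KO total RNA (log2 ratio -0.07), and 299 and 387 CPM in WT immunoprecipitates, against 247 and 291 CPM in WT total RNA (log2 ratio 0.35, edgeR adjusted p = 0.197). Eif2b5, the catalytic subunit, had 267 and 204 CPM in KO immunoprecipitates, against 289.7 and 222 CPM in KO total RNA, and 271 and 305 CPM in WT immunoprecipitates, against 303 and 326 CPM in WT total RNA, with log2 ratios of -0.12 and -0.13. The 4E-binding repressor Eif4ebp1 had ratios of -0.03 and -0.15. None of these passed the threshold.

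**Figure D2:**
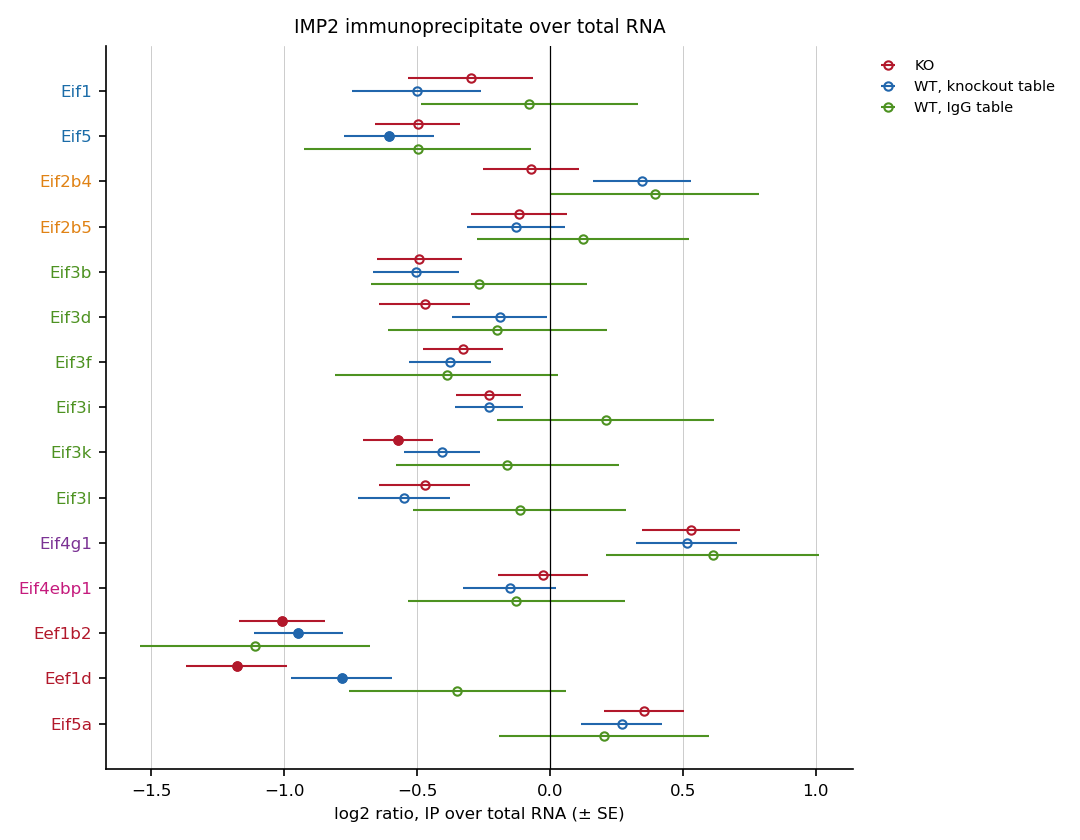
Log2 ratio of IMP2 immunoprecipitate over total RNA for the 15 factors, with its standard error, in KO and WT of the knockout table and in WT of the IgG table (1 immunoprecipitate). Eef1d and Eif4g1 are represented by different transcripts in the knockout table and the IgG table. Filled points pass an adjusted p of 0.05 and gene names are coloured by role; the eIF3 subunits lie left of 0 in KO and in WT of the knockout table, while Eif4g1 and Eif5a lie right of 0 in all 3.

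The second question was whether recovery of any factor depended on IMP2, tested as the KO ratio minus the WT ratio. The differences ran from -0.42 ± 0.26 (SE) for Eif2b4, -0.39 ± 0.27 for Eef1d and -0.28 ± 0.25 for Eif3d to 0.20 ± 0.34 for Eif1. Of the 15 factors 0 passed the edgeR test at an adjusted p of 0.05, against 0% of all genes, and 0 passed at an unadjusted p of 0.05, against 2.44% of all genes; DESeq2 also called 0. Every adjusted p was 0.999. Over the 15 factors the KO and WT ratios had a Pearson r of 0.906 and a Spearman rho of 0.907, given as a description without a test, since the genes share libraries, depth and the scaling. Over all 1189 genes this difference ran from -0.81 to 0.30. The rule by which genes were listed in the knockout table is not given, so listing may itself have depended on this difference. The correlations, the lack of calls and the shares of all genes therefore hold for the listed genes only, and cannot speak for factors that are not listed. How far such listing set the size of the correlations was not tested. Thus Eef1b2 and Eef1d were recovered below total RNA also in immunoprecipitates of mice labelled as lacking IMP2.

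The third question was whether factor levels differed between KO and WT. The largest difference in either kind of RNA was in Eif4ebp1 (chr8:27260327-27275656), the mTORC1-controlled repressor of eIF4E. It had 435 and 528 CPM in KO immunoprecipitates, against 292 and 259.7 CPM in WT immunoprecipitates, and 459.9 and 521 CPM in KO total RNA, against 338 and 274 CPM in WT total RNA. Every KO library lay above every WT library, with log2 ratios of 0.80 ± 0.17 in immunoprecipitates (edgeR adjusted p = 0.129) and 0.68 ± 0.17 in total RNA (adjusted p = 0.266). Neither passed the threshold by edgeR, and of 19 alternatives only DESeq2 called it, with an adjusted p of 0.000393 in immunoprecipitates and 0.00554 in total RNA; over the alternatives adjusted p ran up to 0.515 and 0.72. The KO libraries held less muscle marker RNA than the WT libraries, as given above. Without WT libraries 17 and 22, which hold the most of it, the Eif4ebp1 ratio was 0.72 in immunoprecipitates and 0.54 in total RNA. That leaves 1 library in each WT group. WT immunoprecipitate 21 (1540 CPM) and WT total RNA 16 (2701 CPM) still held more muscle marker RNA than each KO library of their kind. The part of muscle RNA in this difference was thus not tested. Over all 19 alternatives the Eif4ebp1 ratio stayed between 0.67 and 0.97 in immunoprecipitates and between 0.54 and 0.84 in total RNA.

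Eif3f (chr7:108934415-108941942), an eIF3 subunit, had 411 and 393 CPM in KO immunoprecipitates, against 306 and 255 CPM in WT immunoprecipitates, and 515 and 493 CPM in KO total RNA, against 389.9 and 338 CPM in WT total RNA. Its log2 ratio was 0.52 ± 0.15 in immunoprecipitates (edgeR adjusted p = 0.168) and 0.47 ± 0.15 in total RNA (adjusted p = 0.342), again with no overlap and no call. Eif2b4 (chr5:31187558-31193139) lay the other way, with 229 and 193 CPM in KO immunoprecipitates, against 299 and 387 CPM in WT immunoprecipitates (log2 ratio -0.69 ± 0.18, adjusted p = 0.152), and 245 and 199 CPM in KO total RNA, against 247 and 291 CPM in WT total RNA (log2 ratio -0.28 ± 0.18). Eef1b2 had a ratio of 0.40 ± 0.16 in total RNA (adjusted p = 0.392) and 0.34 ± 0.17 in immunoprecipitates (adjusted p = 0.317).

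In total RNA 0 of 15 factors and 0% of all genes passed the edgeR test between KO and WT, and 3 factors (Eif4ebp1, Eif3f and Eef1b2) and 11.1% of all genes passed at an unadjusted p of 0.05. In immunoprecipitates 0 factors and 0% of all genes passed, and 3 factors (Eif4ebp1, Eif3f and Eif2b4) and 17.7% of all genes passed unadjusted. DESeq2 called 1 factor higher in total RNA, against 1.51% of all genes (2.94% in either direction). In immunoprecipitates it called 2 higher (Eif4ebp1 and Eif3f), against 2.78% of all genes, and 1 lower (Eif2b4), against 5.05% (7.82% in either direction). The other 12 factors in total RNA had log2 ratios between -0.30 for Eif2b5 and 0.21 for Eif1.

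**Figure D3:**
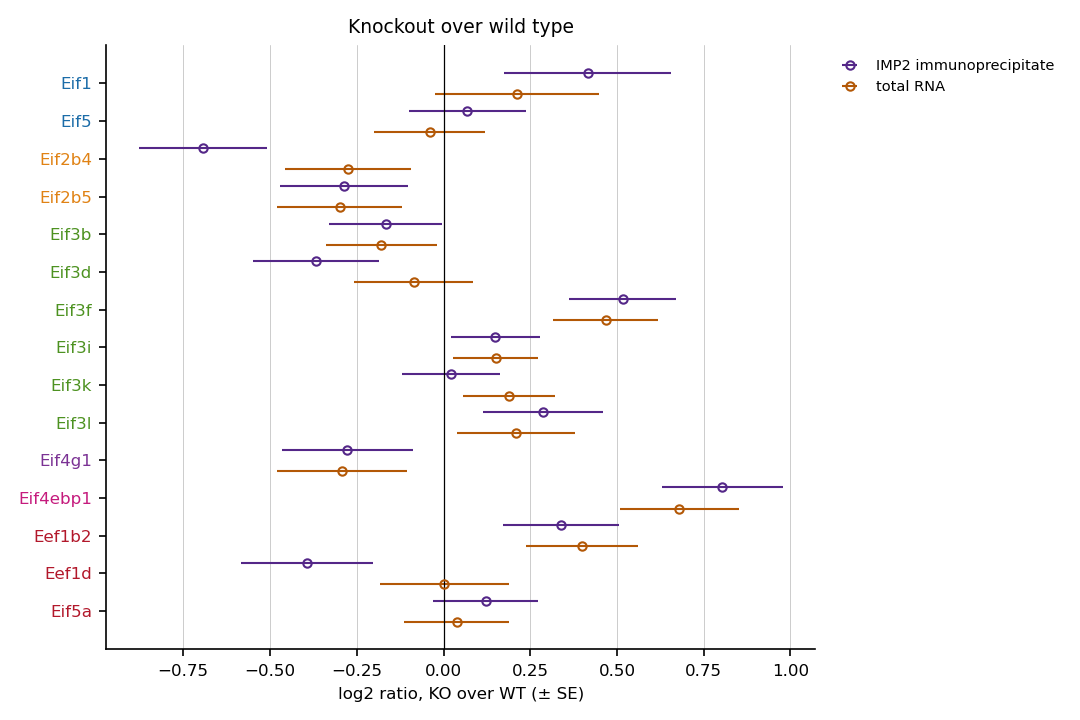
Log2 ratio of KO over WT for the 15 factors in IMP2 immunoprecipitates and in total RNA, with standard errors. No ratio passes an adjusted p of 0.05 by edgeR; Eif4ebp1 lies farthest right in both (0.80 and 0.68) and Eif2b4 farthest left in immunoprecipitates (-0.69).

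The IgG table gave all 57 factors in WT tissue, where 1 IMP2 immunoprecipitate and 1 IgG immunoprecipitate, the control for nonspecific recovery, were each set against the same 2 total RNA libraries. All 57 passed the low-count filter. The single immunoprecipitates have no replicate of their own and the fit takes their spread from the 2 total RNA libraries. Eef1a1 and Eif4e3 were lower in the IMP2 immunoprecipitate than in total RNA, and Eif5b was higher in the IgG immunoprecipitate than in total RNA. In this table skeletal muscle markers (15 of 15 listed, none at 0) summed to 10041 CPM in the IMP2 immunoprecipitate, 6987 CPM in the IgG immunoprecipitate and 18933 and 10236 CPM in total RNA, and blood markers (6 of 7 listed, none at 0) to 2333 CPM in the IMP2 immunoprecipitate, 1305 CPM in the IgG immunoprecipitate and 4675 and 3300 CPM in total RNA. Neuron and Schwann cell markers (3 of 4 listed, none at 0) summed to 58.1 CPM in the IMP2 immunoprecipitate, 167 CPM in the IgG immunoprecipitate and 141 and 137 CPM in total RNA, and 1 of the 3 was called lower in the IMP2 immunoprecipitate against total RNA and 1 against the IgG immunoprecipitate. Endothelial markers (4 of 5 listed, none at 0) summed to 130.3 CPM in the IMP2 immunoprecipitate, 173 CPM in the IgG immunoprecipitate and 227 and 178 CPM in total RNA, with 1 of 4 called lower in the IMP2 immunoprecipitate against total RNA. The part of these markers in the factor results was not tested.

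Against total RNA, 2 of 57 factors were lower in the IMP2 immunoprecipitate by edgeR, against 0.859% of the 8966 genes tested, and 0 were higher, against 0.0446%. Eef1a1 (chr9:78478453-78481724), the factor that carries aminoacyl-tRNAs to the ribosome in most tissues, had 162 CPM in the IMP2 immunoprecipitate, against 522 and 677 CPM in total RNA, a log2 ratio of -1.89 ± 0.44 (adjusted p = 0.00482). It was called in all 9 alternatives, with adjusted p up to 0.0216. It had 259.7 CPM in the IgG immunoprecipitate (log2 ratio to total RNA -1.21, adjusted p = 0.105), and the IMP2 and IgG immunoprecipitates did not differ by the test (-0.68, adjusted p = 0.874). Eef1a1 has many processed pseudogene copies, and how reads that fit several places were counted is not given in the sources used here.

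Eif4e3 (chr6:99621879-99692873), an atypical cap-binding relative of eIF4E, had 63.6 CPM in the IMP2 immunoprecipitate and 176 CPM in the IgG immunoprecipitate, against 282 and 156 CPM in total RNA. The log2 ratio of the IMP2 immunoprecipitate to total RNA was -1.78 ± 0.45 (edgeR adjusted p = 0.0133, and 0.00964 to 0.161 over 9 alternatives, of which DESeq2 alone lost the call). Against total RNA library 20 alone it was -1.30, and against library 15 alone -2.15. The IMP2 and IgG immunoprecipitates differed by -1.47 (adjusted p = 0.336).

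Eif5b (chr1:37998010-38055579), the GTPase that joins the ribosomal subunits, had 40.0 CPM in the IMP2 immunoprecipitate (51 counts) and 166 CPM in the IgG immunoprecipitate (682 counts), against 71.7 and 50.7 CPM in total RNA. The IgG immunoprecipitate stood above all others, at a log2 ratio of 1.45 ± 0.40 to total RNA (edgeR adjusted p = 0.0196), while 1 of 57 factors and 0.48% of all genes were higher there and 0 factors and 1.53% of all genes were lower. The IMP2 immunoprecipitate stood at -2.05 ± 0.51 to the IgG immunoprecipitate (adjusted p = 0.0289), which compares 1 library with 1 library and takes its spread from the 2 total RNA libraries at 1 residual degree of freedom. In that comparison 1 factor and 0.145% of all genes were lower and 0 factors and 0.0558% of all genes were higher. DESeq2 made neither call, with adjusted p running from 0.00738 to 0.212 and from 0.00727 to 0.974 over the alternatives, and the second was lost also with limma-voom and with transcripts summed per gene, so in 3 of 8 alternatives. Of all genes called in the IgG immunoprecipitate 23.9% were higher, against 51.8% with library-size scaling, 34.7% with upper-quartile scaling and 6.82% by DESeq2. Eif5b shares 2794 bases with Rev1, whose own log2 ratios were 0.59 for IgG over total RNA and -0.31 for IMP2 over IgG.

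By role, the start-site and initiator tRNA group held 10 of 12 negative ratios in the IMP2 immunoprecipitate (52.2% of all genes), with a median of -0.51. Its lowest was Eif1ax, an X-linked partner of Eif1, at 18.8 CPM in the IMP2 immunoprecipitate, against 74.5 and 54.1 CPM in total RNA (-1.76, edgeR adjusted p = 0.0619); its paralog Eif1a had 42.4 CPM, against 48.5 and 36.7 CPM (0.00). The eIF2 gamma subunits Eif2s3x and Eif2s3y had -0.18 and -0.92. Eif2s3y had 25.9 CPM in the IMP2 immunoprecipitate, against 22.5 CPM in total RNA 15 and 73.0 CPM in total RNA 20. Its negative ratio thus rests on total RNA 20. Eif2s1 and Eif2s2, which encode the alpha and beta subunits, had -0.51 and 0.02. None passed the threshold.

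Of the 13 eIF3 subunits 11 were negative, with a median of -0.20, from -1.41 for Eif3m (4 counts in the IMP2 immunoprecipitate) and -1.24 for the core subunit Eif3a to 0.82 for Eif3j (9 counts), whose counts are identical to those listed for Eif3j2. All 5 eIF2B subunits were positive, from 0.13 for Eif2b5 to 0.75 for Eif2b1, whose level was 14.9 CPM in the IMP2 immunoprecipitate, against 7.03 and 10.2 CPM in total RNA. Set against the IgG immunoprecipitate, the same 1 IMP2 immunoprecipitate gave them ratios of 0.06 to 0.57. Over 8 alternatives that ratio of Eif2b5 ran from -0.12 to 0.08, so its sign was not stable. None of the eIF2B subunits passed either edgeR test (adjusted p of 0.858 to 0.977 against total RNA). The 10 eIF4 factors had a median of -0.12, with Eif4g1 highest at 0.61 (167 CPM in the IMP2 immunoprecipitate and 184 CPM in the IgG immunoprecipitate, against 129 and 90.4 CPM in total RNA), Eif4h, a helper of the helicase, at 0.42, and the helicases Eif4a1 and Eif4a2 at -0.04 and 0.08. Eif4g1 thus had a ratio to total RNA of 0.75 in the IgG immunoprecipitate, no lower than in the IMP2 immunoprecipitate. Its paralog Eif4g2 had 338 CPM in the IMP2 immunoprecipitate and 462 CPM in the IgG immunoprecipitate, against 509 and 399 CPM in total RNA. Its IMP2 ratio to total RNA ran from -0.44 to -0.41 over 9 alternatives, without a call. The paralog Eif4g3 had 28.3 CPM and 36.6 CPM, against 31.6 and 25.3 CPM.

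The repressors Eif4ebp2 and Eif4enif1, a nuclear transporter of eIF4E, had few counts and ratios of -1.57 (4 counts) and -1.14 (7 counts), while Eif4ebp1 had -0.13 and Eif4ebp3 had 0.32. Eif4ebp3 had the second highest factor ratio in the IgG immunoprecipitate, at 50.0 CPM, against 17.6 and 23.5 CPM in total RNA (1.26, edgeR adjusted p = 0.117). Elongation factors were negative in 5 of 7 cases for the IMP2 immunoprecipitate and 6 of 7 for the IgG immunoprecipitate, with medians of -0.35 and -0.66. Eef1b2 had 87.9 CPM in the IMP2 immunoprecipitate and 117 CPM in the IgG immunoprecipitate, against 155 and 224 CPM in total RNA, ratios of -1.11 and -0.70. Eef1a2, the muscle and neuron form of eEF1A, had 40.8 CPM in the IMP2 immunoprecipitate and 27.1 CPM in the IgG immunoprecipitate, against 77.3 and 22.7 CPM in total RNA, and was highest in the total RNA library with the highest muscle marker sum. Eef2, the translocase, had -0.38 and -0.31.

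The remaining members had few counts. The kinases Eef2k and Eif2ak1, which slow elongation and initiation, had IMP2 ratios of -0.15 and 0.31. Eif4a3, the helicase of the exon junction complex, had the highest factor ratio in the IMP2 immunoprecipitate, at 22.0 CPM, against 7.73 and 11.3 CPM in total RNA (1.17, edgeR adjusted p = 0.639), and Ago1, listed as Eif2c1, had 0.82. Over all 57 factors 38 ratios were negative for the IMP2 immunoprecipitate (median -0.16, beside -0.03 over all genes) and 33 for the IgG immunoprecipitate (median -0.08, beside -0.01). Of all genes 52.2% and 50.3% were negative, and the comparisons share the total RNA libraries.

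Among factors listed in the IgG table alone, the 5 highest and 5 lowest of each comparison not yet given were as follows. In the IMP2 immunoprecipitate against total RNA, Eif2b3 had 0.55. In the IgG immunoprecipitate against total RNA, Ago1 had 1.15, Eif4a3 had 0.94 and Eif4b, the stimulator of the eIF4A helicase, had 0.64, while Eif1ax had -1.08, Eif1ad had -0.92, Eef1a2 had -0.84 and Eif3e had -0.79. Between the IMP2 and the IgG immunoprecipitate, Eif3j had 1.14, Eef1a2 had 0.59, Eif2b1 and Eif2b2 had 0.57 each and Eif2b3 had 0.47, and Eif4ebp2 had -1.55, Eif3a had -1.46 and Eif3m had -1.06. None of these passed an adjusted p of 0.05 by edgeR.

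**Figure D4:**
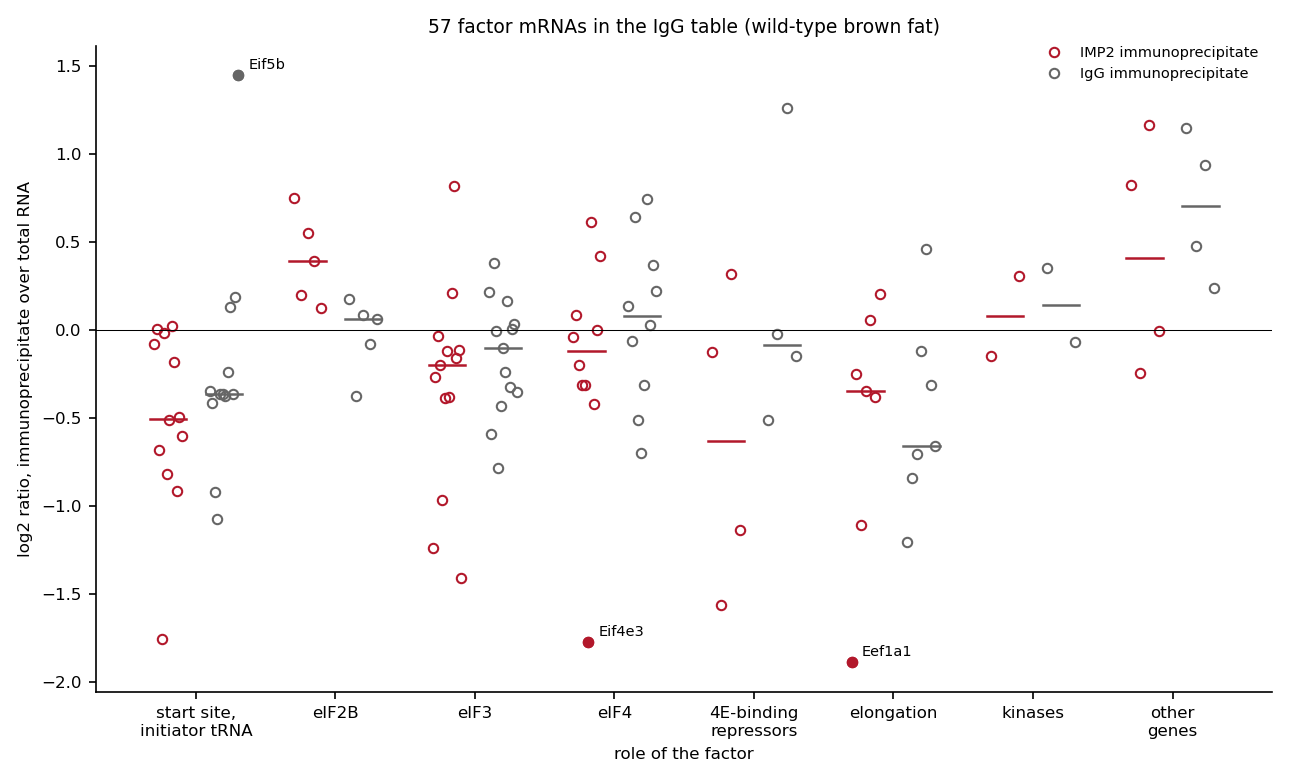
Log2 ratio to total RNA of the 57 factor mRNAs in the IgG table, by role, for the IMP2 and the IgG immunoprecipitate (1 library each, set against the same 2 total RNA libraries). Lines are medians of each role and filled points pass an adjusted p of 0.05; all 5 eIF2B subunits lie above 0 in the IMP2 immunoprecipitate, and Eef1a1 and Eif4e3 lie lowest.

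For the 15 factors of both tables, a joint fit of all 12 libraries with a term for the table set the 3 WT immunoprecipitates against 4 WT total RNA libraries. Genes were joined by symbol, and Eef1d and Eif4g1 were represented by a different transcript in each table, so their joint ratios mix transcripts. It called 5 factors lower, against 14.5% of all genes, and 1 higher, against 14%. Those lower were Eef1b2 (-1.05 ± 0.17, edgeR adjusted p = 0.00135), Eef1d (-0.66 ± 0.15, adjusted p = 0.00853), Eif5 (-0.61 ± 0.15, adjusted p = 0.0124), Eif3f (-0.42 ± 0.12, adjusted p = 0.0245) and Eif3b (-0.46 ± 0.14, adjusted p = 0.03), and the one higher was Eif4g1 (0.51 ± 0.17, adjusted p = 0.04). Eef1b2 and Eef1d held in all 19 alternatives, Eif5 in 17, Eif3f in 14, Eif3b in 12 and Eif4g1 in 10. Leaving out any 1 of 9 libraries ended the call of Eif4g1, among them WT immunoprecipitates 21 and 25 and WT total RNA 16, 17 and 20. Without WT total RNA 16 the fit called 2 factors lower, against 9.5% of all genes, without WT immunoprecipitate 25 also 2, against 8.41%, and without WT immunoprecipitate 22 it called 3, against 10.3%. With upper-quartile scaling the all-gene split was 278 higher and 116 lower, and with library-size scaling 232 and 127, beside 167 and 172 under TMM. Against the 1 IgG immunoprecipitate the same fit called 0 of 15, against 1.6% of all genes. DESeq2 called 1 higher (Eif5a), against 4.74% of all genes, and 1 lower (Eif5), against 5.18%. By edgeR Eif5 had -0.95 (adjusted p = 0.0759) and Eif5a had 0.67 (adjusted p = 0.139).

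Other genes of translation were described by fixed lists. Of 9 factors whose human mRNAs carry the TOP motif, the 3 in the knockout table (Eef1b2, Eef1d and Eif3f) all had negative ratios in both genotypes, as did 50.5% of all genes in KO and 49.1% in WT. Of these 3 the exchange subunits Eef1b2 and Eef1d passed as lower in each, against 15.7% and 12.4% of all genes. Of all 9, which the IgG table lists, 8 were negative for the IMP2 immunoprecipitate and 8 for the IgG immunoprecipitate, against 52.2% and 50.3% of all genes. Their medians were -0.38 and -0.43, and 1 of 9 (Eef1a1) was called lower for the IMP2 immunoprecipitate and 0 for the IgG immunoprecipitate. Of 4 poly(A)-binding proteins and partners in the knockout table, the nuclear Pabpn1 rose in immunoprecipitates of both genotypes (0.80 in KO, edgeR adjusted p = 0.0148, and 0.66 in WT, adjusted p = 0.0371), the cytoplasmic Pabpc1 had 0.79 and 0.50 without passing, and Pabpc4 had -0.56 and -0.11. In the IgG table Pabpc4 was lower in both immunoprecipitates, at -1.56 for IMP2 (adjusted p = 0.0389) and -1.55 for IgG (adjusted p = 0.0197). Among special factors, the ribosomal scaffold Gnb2l1 (RACK1) was lower in both genotypes, with 453 and 467 CPM in KO immunoprecipitates, against 1018 and 1043 CPM in KO total RNA, and 441 and 467 CPM in WT immunoprecipitates, against 962 and 1018 CPM in WT total RNA (log2 -1.16 and -1.13, adjusted p = 0.000284 and 0.000418). The helicase Ddx3x was lower in the IMP2 immunoprecipitate of the IgG table (-1.97, edgeR adjusted p = 0.00611). It had 40.8 CPM there and 64.4 CPM in the IgG immunoprecipitate, against 188 and 134 CPM in total RNA. Its level thus lay below total RNA in the IgG immunoprecipitate too.

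No gene of the other lists passed in any of these comparisons. In the knockout table these were 2 of 8 listed for termination and recycling, 1 of 12 mitochondrial translation factors, 2 of 26 for mTORC1 signalling and 3 of 11 for the integrated stress response, where Atf4, the transcription factor translated when eIF2 is phosphorylated, had ratios of 0.03 in KO and -0.23 in WT. The IgG table listed 7, 10, 19 and 9 of them. No factor or other gene of the fixed lists passed between KO and WT by edgeR, and Pabpc4 had the lowest ratios there, at -1.62 in immunoprecipitates and -1.17 in total RNA.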

How the data were processed

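The deposited brown fat tables hold read counts per RefSeq transcript, whole numbers without scaling, and per the submitters' processing notes TopHat2 2.0.8 and Cufflinks 2.1.1 were used with the mm10 build. Sources used here do not give the counting tool, its strand setting or the rule for listing transcripts. In the knockout table the lowest count of any transcript in any WT library was 101. Listing there may thus have depended on WT counts, and what this does to the WT ratios and the KO and WT comparisons was not tested. The listed factors are not simply those with most counts in the IgG table. Eef2, Eif4g2 and Eef1a1, with summed counts there of 12411, 4107 and 3803, are not listed, whereas Eif5 (1106) and Eif3k (1063) are. The 14 liver samples were not analysed here. Transcripts without a symbol were named by accession from RefSeq GRCm38.p6; the 3 and 22 left unnamed stayed out of tests and library sizes, and took 8.65 to 29.2% (knockout table) and 7.39 to 15.8% (IgG table) of a library's counts. Each gene was represented by its transcript of highest summed count, chosen in each table separately.

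After TMM scaling, counts were tested in edgeR 4.0.16 (quasi-likelihood, R 4.3.3), with Benjamini-Hochberg adjustment over all genes tested at 0.05. Knockout-table fits had 4 residual degrees of freedom, the IgG-table fit 1 and the joint fit 6. The code was tested on simulated counts. Counting intervals are exact Poisson intervals at 95% and cover counting error only. DESeq2 1.42.0, limma-voom (limma 3.58.1), other scalings and filters, summed transcripts and leaving out each library were alternatives. Leaving out libraries 17 and 22 together, and ratios to single total RNA libraries, were chosen after seeing the data. Members, lists and tests were chosen with earlier results of these data known. All factors of the knockout table are named. Of those in the IgG table alone, the called ones, the 5 highest and 5 lowest per comparison and some paralogs of named ones are named. Of each fixed list these are the called genes and at most 4 highest and 4 lowest.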

Additional observations from a re-analysis of the deposited data

How the results depend on the processing

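Among 3442 alternative values of single factors 123 changed sign, none of them called, and of 263 values of called factors 48 missed the threshold; 38 others newly passed it. The share of all genes called in the same direction stands in brackets. In KO, factors lower numbered 7 by DESeq2 (20%) and 2 to 5 on leaving out 1 library (7.32 to 15.8%); factors higher numbered 2 with upper-quartile scaling (23%), library-size scaling (20.7%) and DESeq2 (18.5%), 1 with the groups compared alone (10.4%) or without libraries 17 and 22 (9.5%), and 0 to 1 on leaving out 1 library (3.95 to 11.6%). In WT, factors lower numbered 5 by DESeq2 (17.1%), 0 without libraries 17 and 22 (2.61%), and 1 to 5 on leaving out 1 library (5.13 to 12.6%); factors higher numbered 1 by DESeq2 (16.1%) and 0 to 1 on leaving out 1 library (2.69 to 9.59%). Between KO and WT, DESeq2 gave 1 higher in total RNA (1.51%), and 2 higher (2.78%) and 1 lower (5.05%) in immunoprecipitates. In the IgG table DESeq2 gave 1 lower for IMP2 over total RNA (0.417%), 0 higher for IgG over total RNA (0.104%) and 0 lower for IMP2 over IgG (0.0223%), where limma-voom (0.145%) and summed transcripts (0.144%) also gave 0. In the joint fit against total RNA, upper-quartile scaling gave 2 higher (23.4%) and 3 lower (9.76%) and library-size scaling 3 lower (10.7%), and leaving out 1 library gave 0 to 1 higher (7.74 to 17.2%) and 2 to 7 lower (8.41 to 17.6%). Against IgG, DESeq2 gave 1 higher (4.74%) and 1 lower (5.18%), library-size scaling 1 lower (1.6%), and leaving out 1 library 0 to 1 lower (0 to 2.86%). The cause of these differences was not tested.

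Upper-quartile scaling moved the median of all genes by 0.14 in WT, 0.17 in KO and 0.11 in the joint fit, and library-size scaling by 0.13 in KO, by 0.17 for IgG over total RNA and by -0.18 for IMP2 over IgG. Leaving out a total RNA library of the IgG table leaves no residual degree of freedom. No paired analysis was possible because the groups share no replicate numbers and the labels tie no immunoprecipitate to a total RNA library. Groups of 2 and immunoprecipitates of 1 library limit what can be called, and several IgG-table factors rest on under 10 counts per library.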
